A study of Mus musculus with 4 samples.

Results

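The genes described here are 33 genes that mark the cells of brain blood vessels, measured by RNA-seq in hippocampus of wild type (WT) and Lsd1 knock-in (KI) mice. They were given as a list of symbols, 29 of endothelial cells and 4 of pericytes, and all 33 symbols matched 1 Ensembl gene each among the 26328 genes listed in at least 1 sample. The rule that lists them uses no measured value, but the list was chosen with earlier results of these data known. Lsd1 KI mice carry, in every cell, an Lsd1 allele in which the serine phosphorylated by PKCα is replaced by alanine (Lsd1 SA/SA), and WT mice carry the unaltered allele. Each group had 2 samples of total hippocampal RNA, from C57BL/6 males, and the labels give an age of 8 to 15 weeks for the study's behavioural tests only. Nothing in the labels says how many mice each sample holds, so the p-values below measure only the spread between these samples.

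The endothelial cells of brain capillaries form the blood-brain barrier. Tight junctions seal the gaps between them, carriers bring glucose, hormones and lipids across, efflux pumps return foreign compounds to the blood, and the receptors for VEGF and the angiopoietins keep the vessels alive and quiescent. Pericytes lie on the outside of the capillary within the same basement membrane and help to keep the barrier closed.

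Values are RPKM, in which reads are scaled by exon length and by the sample's mapped reads, so that levels can be compared between genes. Depth, worked out from the steps that whole reads leave in the RPKM values, was about 13415000 and 8827970 mapped reads for WT (replicate 1 first, here and wherever a pair of values is given) and 14381300 and 14949800 for KI. Groups were compared with limma on log2(RPKM + 1) for the 18436 genes that reached 0.5 RPKM in 2 or more samples. A gene was called where the Benjamini-Hochberg adjusted p was under 0.1 and the change 1.2-fold or more. Of those 18436 genes 0 were called (0%), while 1774 had an unadjusted limma p under 0.05. With 2 samples against 2, an exact permutation test cannot give a p below 0.333. Kdm1a, the gene of LSD1, is altered by the knock-in in its sequence and not deleted, so its level does not check the labels. It was at 11.6 and 11.2 RPKM in WT and at 10.97 and 11.2 RPKM in KI. The hippocampal neuron genes Slc17a7, at 386 to 415 RPKM, and Rbfox3, at 40.0 to 44.8 RPKM, were high in every sample, and Prox1 of dentate granule cells was at 17.3 and 16.9 RPKM in WT and at 10.2 and 13.1 RPKM in KI.

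All 33 vascular genes passed the filter on low values, and the defining markers of both cell types were present in every sample. Bsg, which encodes basigin, a chaperone of monocarboxylate carriers that other brain cells make as well, was the highest, at 152 and 159 RPKM in WT and at 163 and 158 RPKM in KI. The remaining genes ran from 33.1 RPKM for Ly6c1 in KI replicate 2 down to 0.754 RPKM for Emcn (endomucin) in WT replicate 2. Next after Bsg came Ly6c1, a surface protein of capillary endothelium, then the pericyte genes Vtn (vitronectin) at 23.8 to 25.97 RPKM and Rgs5 (a regulator of G protein signalling) at 23.6 to 24.6 RPKM. These were followed by Slc2a1, the barrier glucose carrier, at 20.05 to 23.2 RPKM, Cldn5, the main barrier claudin, at 15.7 to 20.4 RPKM, and Itm2a at 16.7 to 19.8 RPKM. The ranges of Ly6c1, Vtn and Rgs5 overlap, as do those of Ly6c1 with Slc2a1, of Slc2a1 with Cldn5 and of Cldn5 with Itm2a. The order of these genes is therefore not settled. In WT the mean of Ly6c1, 21.7 RPKM, was below those of Vtn (25.2 RPKM) and Rgs5 (23.9 RPKM). At the low end stood the transcription factors Foxq1, Sox17 and Erg, the pericyte channel subunit Abcc9, and Nostrin, Vwf and Emcn, all with means between 0.990 and 1.44 RPKM. The reads behind a value were settled for 32 of the 33 genes, Abcc9 being the exception, and ran from 22 for Nostrin in WT replicate 2 to 4285 for Bsg in KI replicate 2.

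**Figure D1:**
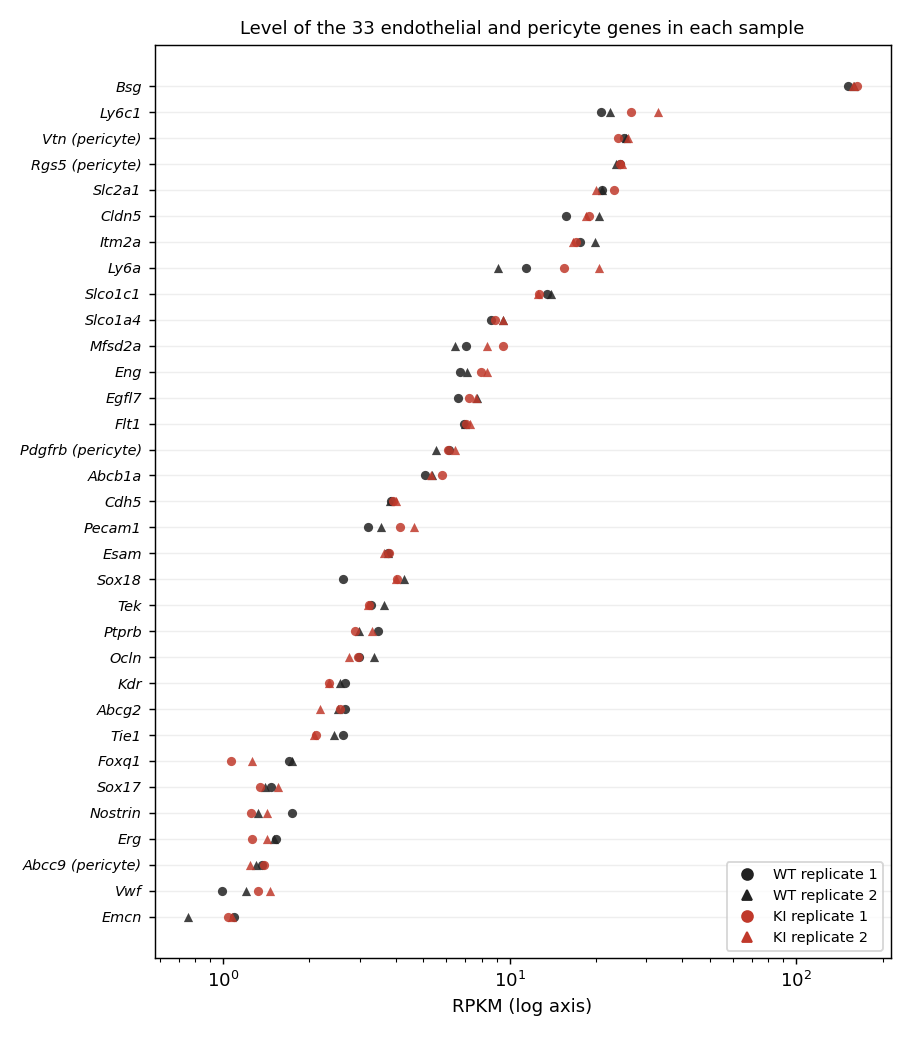
RPKM (log axis) of each of the 33 genes in the 4 samples, ordered by mean, with WT in black and KI in red and replicates 1 and 2 as circles and triangles. Bsg stands alone at 152 to 163 RPKM, and the 4 samples lie close together for most genes, with Ly6a, Ly6c1 and Foxq1 spread widest between the groups.

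Most of the vascular genes were at about the same level in KI and WT hippocampus. The ratio of mean RPKM, KI over WT, lay within 10% in 18 of the 33 genes, and the median log2 difference over the list was 0.03, beside 0.01 over all genes tested. None of the 33 genes was called by limma (0 of 33, beside 0% of all genes), and their smallest adjusted p was 0.398, for Ly6a. An unadjusted limma p under 0.05 was found in 6 of the 33 genes, beside 9.62% of all genes tested, with 5 higher in KI (6.3% of all genes) and 1, Foxq1, lower (3.33% of all genes). Taken at any ratio, 8 genes had both KI samples above both WT samples (24% of all genes), 8 had both below (18.1% of all genes) and 17 overlapped. With a ratio of at least 1.2, the KI samples were both above in 5 of the 33 genes (Ly6a, Ly6c1, Mfsd2a, Pecam1 and Vwf), beside 10.3% of all genes. They were both below by as much in 2 (Foxq1 and Tie1), beside 5.32% of all genes. These counts are close to, or a few genes above, what the same shares of 33 genes would give, and 2 of the 5 higher genes, Ly6a and Ly6c1, are of 1 gene family. Replicates of the 33 genes differed by a median of 0.07 between the WT samples and 0.08 between the KI samples on the log2 scale, and the groups by a median of 0.10. In bulk tissue, fewer cells of a type and less RNA per cell cannot be told apart.

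**Figure D2:**
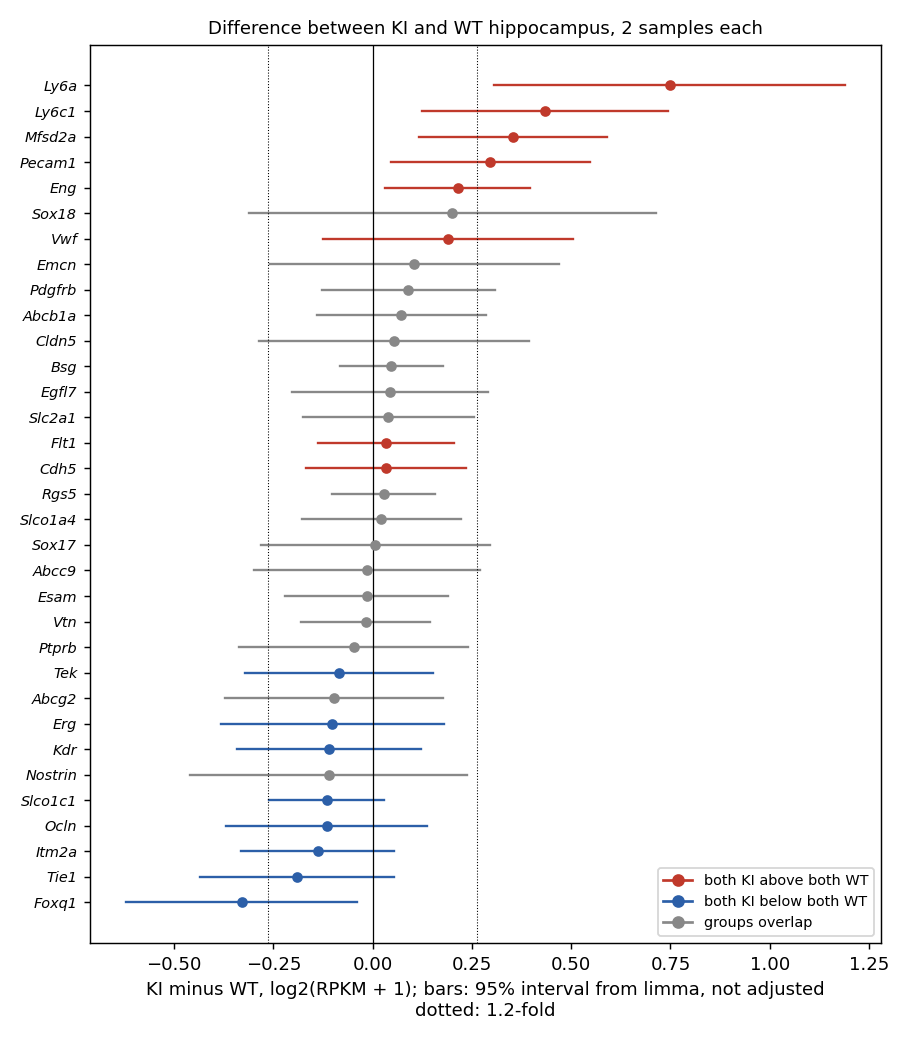
Difference KI minus WT in log2(RPKM + 1) for each of the 33 genes, with the 95% interval from limma (not adjusted for multiple testing), in red where both KI samples were above both WT samples, in blue where both were below, and in grey where the groups overlapped. Dotted lines mark 1.2-fold, and Ly6a at 0.75 and Foxq1 at -0.33 are the ends of the range.

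Ly6a and Ly6c1 differed most among the genes higher in KI. Both encode small GPI-anchored proteins of the Ly6 family on the luminal face of endothelial cells, and both lie in the Ly6 cluster on chromosome 15 (Ly6a, also called Sca-1, at 74994877 to 74998031 and Ly6c1 at 75044018 to 75048830 in GRCm38). Ly6a was at 11.4 and 9.13 RPKM in the WT samples and at 15.5 and 20.5 RPKM in the KI samples, on 125, 66, 182 and 251 reads. Every KI value lay above every WT value, and the KI samples differed between themselves as well. The ratio of means was 1.75, and the log2 difference was 0.75 (standard error 0.17, adjusted p = 0.398 from limma), between 0.56 and 0.94 as each sample was left out. Ly6c1 was at 20.8 and 22.5 RPKM in WT and at 26.5 and 33.1 RPKM in KI. The groups did not overlap, and KI replicate 2 was again the highest. Its ratio of means was 1.37 and its log2 difference 0.43 (standard error 0.12, adjusted p = 0.450 from limma). Without KI replicate 2 that difference was 0.28, and it ran up to 0.59 without KI replicate 1.

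Ly6a is also known as a gene that interferon induces in several cell types, so 9 genes of the interferon response were set beside it. In all 9 the KI samples were both above the WT samples with a ratio of at least 1.2 (10.3% of all genes), and their summed level was 26.8 to 28.5 RPKM in WT and 41.0 RPKM in KI replicate 1 and 58.9 RPKM in KI replicate 2. KI replicate 2 was the highest sample in this sum, as in Ly6a and Ly6c1. Among all the vascular genes, KI replicate 2 was highest in 12 and KI replicate 1 in 6, beside 7 and 8 for the WT samples. An order of 2 KI samples can also match by chance, so it does not link Ly6a to the interferon genes. Irf7, the transcription factor that sustains the response, was at 1.11 and 0.638 RPKM in WT and at 2.05 and 2.90 RPKM in KI. Usp18, which limits interferon signalling, had a ratio of means of 2.57, Ifit1 of 2.33 and Ifit3 of 2.17. Usp18 was at 0.421 and 0.384 RPKM in WT. It passed the filter on low values through its KI samples alone, so it could be counted only as higher. By limma, 0 of the 9 were called (0% of all genes), and 8 had an unadjusted p under 0.05 (9.62% of all genes). The list had been seen to differ in these samples before it was used here, and its part in the Ly6a difference was not tested. Of the 31 vascular genes other than Ly6a and Ly6c1, 3 were higher in both KI samples with a ratio of at least 1.2 (9.68%, beside 10.3% of all genes) and 2 were lower (6.45%, beside 5.32% of all genes). Their summed RPKM was 357 and 374 in WT and 376 and 371 in KI. Bsg, which other brain cells make as well, alone gave 152 and 159 RPKM of the WT sums and 163 and 158 RPKM of the KI sums.

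Within 0.5 Mb of Ly6a, 8 other genes were tested, a set chosen after its values were seen. Ly6c2, Lynx1, Arc and Gm26117 were higher in both KI samples with a ratio of at least 1.2 (10.3% of all genes). By as much, 0 genes were lower (5.32% of all genes). Ly6e, the nearest of the 8, was at 59.3 and 57.1 RPKM in WT and at 70.7 and 68.2 RPKM in KI. Its ratio of means, 1.19, was just under 1.2. Ly6c2, the closest relative of Ly6c1, was at 0.749 and 1.14 RPKM in WT and at 1.75 and 2.27 RPKM in KI, on 8, 8, 20 and 27 reads. Of the 1705 windows of read length in Ly6c1 transcripts, 38 also occur in Ly6c2, and 0 windows of Ly6a occur in another gene. These windows are of GENCODE M21 transcripts, in which Ly6c1 has 1677 exon bases and Ly6a 1205. The exon lengths behind their RPKM were 862 and 819 bases. Exact copies in annotated transcripts thus cover little of either gene as annotated there. Near copies that differ by some bases, and copies outside annotated transcripts, were not searched, so reads lost to those are not known.

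Mfsd2a and Pecam1 were the other well-measured genes on this side. Mfsd2a, the carrier that takes lysophosphatidylcholine with docosahexaenoic acid into the brain and holds down vesicle traffic across the barrier, was at 7.02 and 6.44 RPKM in WT and at 9.46 and 8.32 RPKM in KI, on 128 to 306 reads. Both KI samples stood above both WT samples, and the groups were apart by more than either pair of replicates. The ratio of means was 1.32 and the log2 difference 0.35 (standard error 0.09, adjusted p = 0.435 from limma). Pecam1, the adhesion molecule CD31 of endothelial contacts, which platelets and leukocytes also carry, was at 3.21 and 3.55 RPKM in WT and at 4.13 and 4.62 RPKM in KI. Both KI values were the higher ones, with a ratio of means of 1.295 and a log2 difference of 0.30 (adjusted p = 0.490 from limma). Vwf, the von Willebrand factor stored by endothelium of larger vessels, was near 1 RPKM, at 0.988 and 1.21 RPKM in WT and 1.32 and 1.46 RPKM in KI, with a ratio of 1.27. The gap between the groups was narrow, and limma gave an adjusted p of 0.654. Its log2 difference was 0.19, and 0.12 without WT replicate 1.

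Foxq1 and Tie1 were the genes lower in both KI samples by at least 1.2-fold. Foxq1, a forkhead transcription factor enriched in brain endothelium over that of other organs, was at 1.70 and 1.74 RPKM in WT and at 1.07 and 1.27 RPKM in KI, on 64, 43, 43 and 53 reads. WT replicates were nearly equal and both KI samples lay below them, with a WT level 1.48 times that of KI and a log2 difference of -0.33 (standard error 0.11, adjusted p = 0.490 from limma). The transcript A530084C06Rik runs along the opposite strand of Foxq1 on chromosome 13, and 3050 of the 4693 windows of read length in Foxq1 occur in it too. Foxq1 has 4843 exon bases in the annotation that gave these windows, and the length behind its RPKM was 2801 bases. The share of the counted exons is therefore not known. A530084C06Rik was itself at 0.652 and 0.991 RPKM in WT and at 0.565 and 0.732 RPKM in KI. Use of strand in the counting is not given in the sources used here, and without it reads of the partners cannot be told apart. Tie1, the orphan receptor that modulates signalling through Tek, was at 2.62 and 2.44 RPKM in WT and at 2.11 and 2.08 RPKM in KI. Its WT level was 1.21 times that of KI (adjusted p = 0.574 from limma).

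**Figure D3:**
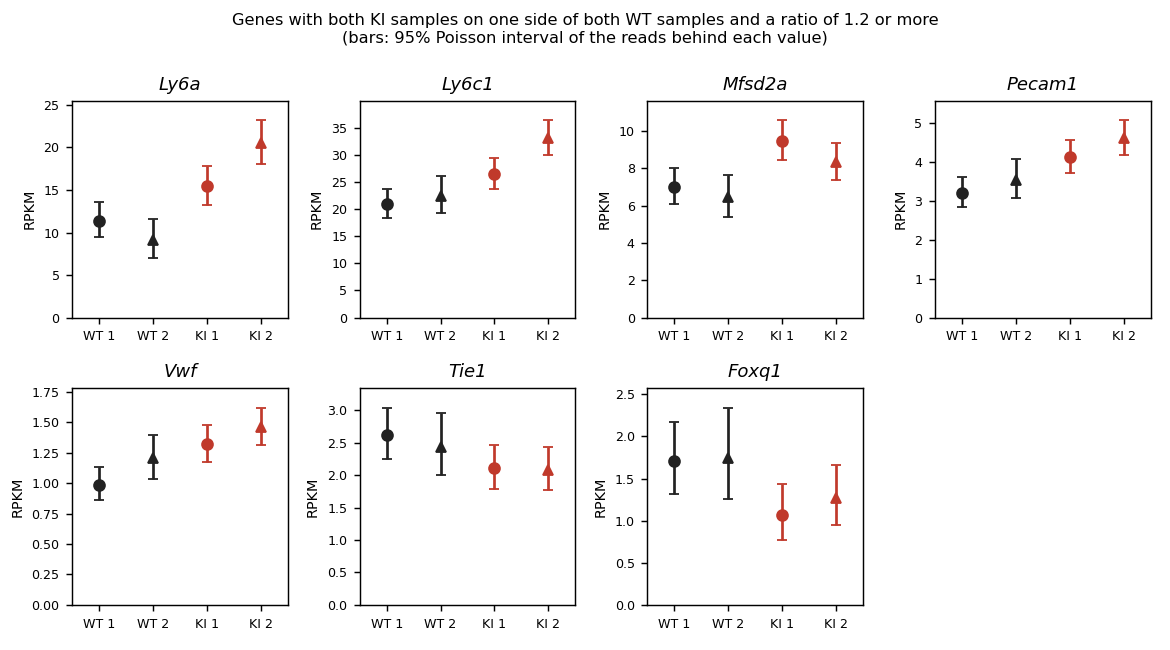
RPKM in each sample for the 7 genes with both KI samples on one side of both WT samples and a ratio of at least 1.2, with the 95% Poisson interval of the reads behind each value as bars. The interval of KI replicate 2 lies above those of both WT samples for Ly6a, Ly6c1 and Pecam1, as does that of KI replicate 1 for Mfsd2a, while the intervals of the groups overlap for Vwf, Foxq1 and Tie1.

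Promoters, 250 bases before to 50 after the transcription start, were available for 22 of the 33 genes (30 promoters, RefSeq, GRCm38.p6). They are shown for the 3 of the 7 separated genes that have one, to set the letters around these starts beside the levels above. For Ly6c1 the first of its 2 listed promoters is given. Capitals mark the letters GGAAG, which hold the core GGAA bound by ETS factors such as ERG, on either strand, with overlapping matches joined. Ly6c1 (chr15:75048788-75049087, minus strand) has 1 match of GGAAG, Mfsd2a (chr4:122961139-122961438, minus strand) has 0, and Tie1 (chr4:118489800-118490099, minus strand) has 7. GGAA followed by another base was not searched or marked. It occurs in the Ly6c1 and Mfsd2a letters as well, so these are not counts of the core.
Ly6c1: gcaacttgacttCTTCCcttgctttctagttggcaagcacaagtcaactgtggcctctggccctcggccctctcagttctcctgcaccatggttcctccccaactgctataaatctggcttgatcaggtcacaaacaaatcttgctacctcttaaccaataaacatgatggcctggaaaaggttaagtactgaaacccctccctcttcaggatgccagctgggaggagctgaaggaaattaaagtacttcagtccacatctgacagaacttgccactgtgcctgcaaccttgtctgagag
Mfsd2a: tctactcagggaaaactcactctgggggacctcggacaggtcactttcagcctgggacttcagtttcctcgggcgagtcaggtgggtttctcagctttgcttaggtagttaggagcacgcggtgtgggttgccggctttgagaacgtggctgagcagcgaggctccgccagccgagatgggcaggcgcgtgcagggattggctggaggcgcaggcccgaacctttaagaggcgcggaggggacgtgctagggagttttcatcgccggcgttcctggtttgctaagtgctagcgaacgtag
Tie1: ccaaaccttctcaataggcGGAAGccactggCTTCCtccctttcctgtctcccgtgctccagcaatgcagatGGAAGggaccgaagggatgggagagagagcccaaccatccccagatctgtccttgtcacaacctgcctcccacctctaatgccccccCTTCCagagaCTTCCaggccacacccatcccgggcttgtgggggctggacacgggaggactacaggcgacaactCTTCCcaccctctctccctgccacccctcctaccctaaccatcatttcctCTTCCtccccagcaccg
GGAAG occurs in 71.4% of all 32851 promoters of this length and in 21 of the 30 promoters of vascular genes. The E-box CACGTG, which binds CLOCK and BMAL1, partners of phosphorylated LSD1, occurs in 7.15% of all promoters and in 1 of the 30, that of Slco1c1. The interferon-stimulated response element, searched as GAAANNGAAA on both strands, occurs in 3.44% of all promoters, and the gamma-activated site TTCNNNGAA in 8.30%. Each was found in 1 of the 30, that of Vtn, and in none of the 3 promoters shown. These windows are short, and a match is only a run of letters.

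The 5 junction genes had a median log2 difference of 0.03, and those other than Pecam1 differed little. Cldn5 was at 15.7 and 20.4 RPKM in WT and at 18.9 and 18.4 RPKM in KI, the KI values lying between the WT values. Cdh5 (VE-cadherin, of the adherens junction) was at 3.85 and 3.84 RPKM in WT and at 3.91 and 4.01 RPKM in KI, a ratio of 1.03 with a 95% interval from limma of 0.890 to 1.18-fold on the log2(RPKM + 1) scale. Esam, an immunoglobulin-like adhesion molecule of endothelial contacts, had a ratio of 0.987 (0.858 to 1.14-fold). Ocln (occludin) was at 2.98 and 3.35 RPKM in WT and at 2.95 and 2.74 RPKM in KI, a ratio of 0.898. The interval of Cldn5, 0.820 to 1.31-fold, was the widest of these, and differences inside it could not be seen with 4 samples.

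The 5 receptors had a median log2 difference of -0.08. Flt1 (VEGF receptor 1) had the ratio closest to 1 of these, 1.03, at 6.94 and 6.99 RPKM in WT and at 7.03 and 7.28 RPKM in KI, on 715 to 1261 reads. Kdr (VEGF receptor 2) was at 2.65 and 2.57 RPKM in WT and at 2.35 and 2.34 RPKM in KI, and Tek (the angiopoietin receptor TIE2) at 3.27 and 3.65 RPKM in WT and at 3.22 and 3.19 RPKM in KI. Both had their KI values below their WT values, with ratios of 0.899 and 0.925, less than 1.2-fold. Eng (endoglin), a coreceptor of the TGF-beta family, was at 6.70 and 7.08 RPKM in WT and at 7.96 and 8.35 RPKM in KI, a ratio of 1.18 (limma adjusted p = 0.490). Ptprb, the phosphatase that restrains TEK and VE-cadherin signalling, and Egfl7, a secreted factor that guides vessel growth, overlapped between the groups. Ptprb was at 3.47 and 2.99 RPKM in WT and at 2.88 and 3.30 RPKM in KI, and Egfl7 at 6.60 and 7.72 RPKM in WT and at 7.18 and 7.60 RPKM in KI.

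Of the 7 transporter genes, 6 had a ratio within 10%, with Mfsd2a the exception. Their median log2 difference was 0.04. Slc2a1 was at 20.9 and 21.004 RPKM in WT and at 23.2 and 20.05 RPKM in KI, so that KI replicate 1 stood above and KI replicate 2 below both WT samples. Abcb1a and Abcg2, the efflux pumps P-glycoprotein and BCRP, overlapped between the groups. Abcb1a was at 5.07 and 5.37 RPKM in WT and at 5.80 and 5.30 RPKM in KI, and Abcg2 at 2.66 and 2.52 RPKM in WT and at 2.55 and 2.17 RPKM in KI. Of the windows of Abcb1a, 9.66% are shared with its relative Abcb1b or an overlapping transcript. Slco1a4, an organic anion carrier, was at 8.63 to 9.50 RPKM in the 4 samples. Slco1c1, the thyroxine carrier of barrier endothelium and astrocytes, was at 13.5 and 13.97 RPKM in WT and at 12.7 and 12.5 RPKM in KI, lower in both KI samples by a ratio of 0.917. Bsg had a ratio of 1.03 and a 95% interval of 0.944 to 1.13-fold.

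The remaining endothelial genes overlapped or differed little. Itm2a, a membrane protein, was at 17.7 and 19.8 RPKM in WT and at 17.1 and 16.7 RPKM in KI, lower in both KI samples at a ratio of 0.902. Emcn and Nostrin, which traffics endothelial nitric oxide synthase, rested on 22 to 87 reads a sample and overlapped. Emcn was at 1.09 and 0.754 RPKM in WT and at 1.04 and 1.08 RPKM in KI, the lowest value being that of the shallowest sample. Of the other transcription factors, Erg was at 1.53 and 1.503 RPKM in WT and at 1.26 and 1.43 RPKM in KI, lower in both KI samples at a ratio of 0.888. Sox17 had a ratio of 1.01, and Sox18 varied more between the WT samples (2.62 and 4.27 RPKM) than between the groups. Exon sequence shared with an overlapping transcript makes up 11.9% of the Sox17 windows.

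All 4 pericyte genes overlapped between the groups and had ratios between 0.983 and 1.07. Rgs5 was at 24.3 and 23.6 RPKM in WT and at 24.2 and 24.6 RPKM in KI, on 947 to 1675 reads, and its 95% interval from limma was 0.932 to 1.12-fold. Vtn was at 24.97 and 25.4 RPKM in WT and at 23.8 and 25.97 RPKM in KI. Pdgfrb, the PDGF receptor that recruits pericytes to vessels, was at 6.14 and 5.52 RPKM in WT and at 6.08 and 6.45 RPKM in KI, and Abcc9, a subunit of the pericyte potassium channel, at 1.36, 1.31, 1.38 and 1.24 RPKM. The summed level of the 4 was 55.8 to 56.8 RPKM in WT and 55.5 to 58.3 RPKM in KI. Among 15 other pericyte genes, such as Notch3 and Cspg4, 13 were tested. With a ratio of at least 1.2, 1 was higher in both KI samples, Foxf2 (ratio 1.36), or 7.69%, beside 10.3% of all genes. By as much, 0 were lower (5.32% of all genes).

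Of the genes on chromosome 4 with Kdm1a, Mfsd2a lies 13.6 Mb, Slc2a1 17.4 Mb, Tie1 18.1 Mb and Tek 41.8 Mb from it. Mfsd2a was higher and Tie1 and Tek were lower in both KI samples, and Slc2a1 overlapped. Sequence differences that a knock-in can carry along its chromosome were not tested.

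Among the other genes of vessel growth and of the barrier, 0 were called by limma (0% of all genes). An unadjusted limma p under 0.05 was found in 2 of 16 signalling genes and 3 of 25 endothelial identity genes below. It was found in 0 of 13 Wnt genes and 0 of 17 other barrier transporters and junction genes. The share over all genes tested was 9.62%. Of 16 tested genes of VEGF, angiopoietin, Notch and apelin signalling, 2 were higher (Flt4, ratio 1.57 at under 0.7 RPKM, and Apln) and 1 was lower (Notch4, ratio 0.806) in both KI samples by at least 1.2-fold. Flt4 passed the filter on low values through its KI samples alone, so it could be counted only as higher. Apln, the ligand apelin made by growing vessels, was at 5.42 and 6.33 RPKM in WT and at 8.92 and 7.54 RPKM in KI (adjusted p = 0.447 from limma). Of 13 genes of the Wnt pathway that induces the barrier, Ndp (ratio 1.21) was higher and Lef1 (0.832, at under 0.7 RPKM) and Apcdd1 (0.833) were lower. In the signalling list 12.5% were higher and 6.25% lower, and in the Wnt list 7.69% and 15.4%. The shares over all genes tested were 10.3% and 5.32%. Axin2, a target of the pathway like Lef1 and Apcdd1, was at 4.97 and 5.02 RPKM in WT and at 5.99 and 5.45 RPKM in KI, higher in both KI samples at a ratio of 1.15. Of 17 other barrier transporters and junction genes, Cgn (1.28) was higher and Abcc4 (0.803) and Cav1 (0.833), of endothelial caveolae, were lower. That was 5.88% higher and 11.8% lower, beside the same shares over all genes. Of 25 tested genes among 26 other endothelial identity genes, 5 were higher and 1 lower, beside 10.3% and 5.32% of all genes. The widest were Ctla2a, at 2.12 and 2.72 RPKM in WT and 3.49 and 4.63 RPKM in KI, Robo4 with a ratio of 1.34, Adgrl4 with 1.26, and Ets1, which was lower with a ratio of 0.716.

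Of 8 tested arterial and venous genes, Lcn2 was higher and Gkn3 (ratio 0.601) lower in both KI samples by at least 1.2-fold, and of 3 tested genes of endothelial activation, 1 was higher, Icam1 (10.3% of all genes higher and 5.32% lower). Lcn2, an acute-phase lipocalin that is also made by inflamed endothelium and glia, was at 0.0324 and 0.0492 RPKM in WT, on 1 read in each sample, and at 1.87 and 3.98 RPKM in KI, on 62 and 137 reads (adjusted p = 0.307 from limma). Lcn2 passed the filter on low values through its KI samples alone, so it could be counted only as higher. Icam1, the leukocyte adhesion molecule that activated endothelium displays, was at 0.646 and 0.758 RPKM in WT and at 1.34 and 1.58 RPKM in KI, on 22, 17, 49 and 60 reads, a ratio of 2.08 (adjusted p = 0.399 from limma). Sele (E-selectin) had 0 reads in both WT samples and 6 in each KI sample and was below the filter. Vcam1 was at 5.88 and 5.40 RPKM in WT and at 6.36 and 6.67 RPKM in KI, while Selp and Plvap overlapped.

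Other cells of the vessel wall and its surroundings were read from lists of their markers. Of 7 tested smooth muscle genes, 3 were lower in both KI samples by at least 1.2-fold (5.32% of all genes) and 0 were higher (10.3% of all genes). The summed level of all 8 listed, with Cnn1 that was below the filter, was 28.2 to 29.0 RPKM in WT and 23.3 to 24.2 RPKM in KI. Acta2, smooth muscle actin, was at 6.40 and 7.89 RPKM in WT and at 5.04 and 4.39 RPKM in KI, and the others were Tagln (ratio 0.726) and Myh11 (0.751). The adjusted p of these from limma was 0.409 to 0.516. Perivascular macrophage genes were near 0, with 0 of 6 past the filter and a summed level of 0.847 to 1.07 RPKM in WT and 1.19 to 1.56 RPKM in KI. Red blood cell genes overlapped in all 5, at summed levels of 44.9 to 49.4 RPKM in WT and 34.6 to 56.2 RPKM in KI. Of 8 tested genes of fibroblasts and meninges, Slc6a13 (ratio 0.704) was lower and 0 were higher. Of 4 tested choroid plexus genes, Kl (1.37) and Sostdc1 (1.40) were higher, and the defining gene Ttr was at 8.13 and 13.8 RPKM in WT and at 51.3 and 8.89 RPKM in KI, with KI replicate 1 apart from the other samples. Of 6 microglia genes, Tmem119 (1.27) was higher and P2ry12 (0.818) lower. None of the 6 astrocyte and 5 oligodendrocyte genes, and only Prox1 of the 6 neuron genes, was separated by at least 1.2-fold. What these cells contribute to the vascular genes was not tested.

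**Figure D4:**
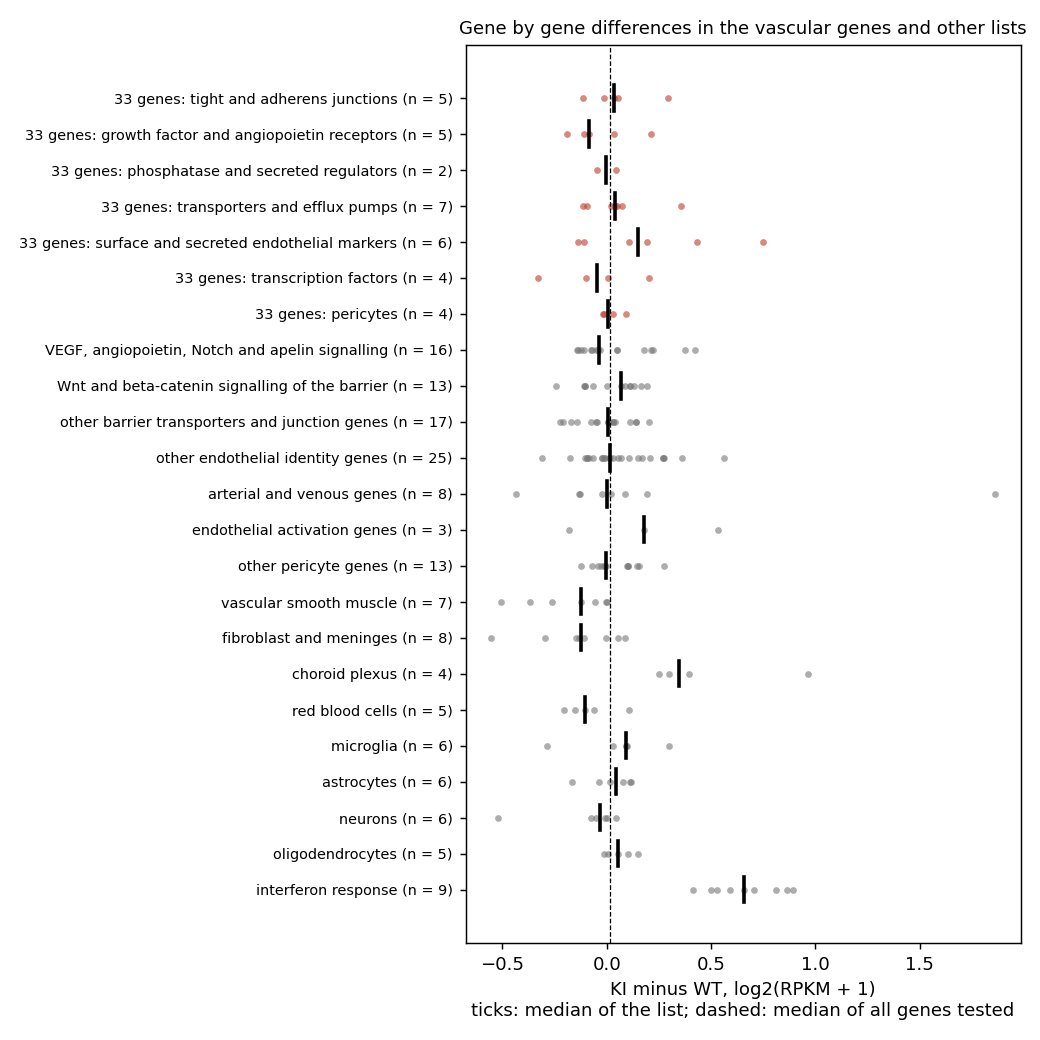
Difference KI minus WT in log2(RPKM + 1) for each tested gene of the vascular roles (red) and of the other lists (grey), with the median of each list as a black tick and that of all genes tested (0.01) as a dashed line. The pericyte genes lie close to the line, the 9 interferon genes all lie above 0, and the point furthest right is Lcn2. Lcn2, Flt4 and the interferon gene Usp18 passed the filter on low values through their KI samples alone.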

How the data were processed

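RNA-seq was available for 2 WT and 2 KI hippocampus samples, grouped by the sample titles. Per the labels and the study's methods, the authors isolated poly(A) RNA, aligned read pairs to mm10 with GSNAP and kept uniquely and properly mapped pairs. CASAVA is also named in the submitters' processing notes. The values the authors deposited are RPKM on the genes of Ensembl release 74, 1 file per sample, and the counting tool is not given in the sources used here. A gene a file does not list was set to 0. The study used edgeR on counts and, at a false discovery rate of 10%, reported genes both higher and lower in KI. The 0 genes called here hold for limma on RPKM only. Because the files hold RPKM, limma (version 3.58.1, R 4.3.3) with a mean-variance trend was used on log2(RPKM + 1) for the 18436 genes that reached 0.5 RPKM in 2 or more samples. This scale understates the change of low genes, and ratios are of mean RPKM.

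Mapped reads per sample were taken as the number that makes RPKM times exon length (GENCODE M21, GRCm38) whole, within 0.02 reads. Where that length gave no whole reads, the only length that did so in all 4 samples was used. Windows of read length were taken from GENCODE M21 transcripts, so for genes whose counted length differs, Sox17 among them, the shared part of the counted exons is not known. Intervals on reads cover counting error only. The limma code was tested on simulated data, and the rest was computed in Python 3.11.15. The 33 genes, the 17 other lists, the naming rule (genes not overlapping between groups with a ratio of at least 1.2, at most 4 in each other list) and the tests were chosen with earlier results of these data known.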

Additional observations from a re-analysis of the deposited data

How the results depend on the processing

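None of the 33 vascular genes was called under any of the 13 alternatives, and 0 of all genes were called except without the mean-variance trend, which gave 20 genes (17 higher, 3 lower), 0 of them vascular. The 7 genes set apart between the groups numbered 6 with at least 1 RPKM in every sample, 7 with quantile normalization (Erg in place of Vwf), 1 (Ly6a) at 1.5-fold, and 6 to 10 as each sample was left out, where fewer values have to be apart. The median log2 difference of the list ran from 0.002 with quantile normalization to 0.04 without KI replicate 1, and the 7 genes kept their direction in each alternative that tested them (Vwf fell below the stricter filter). The samples share replicate numbers in the labels. Fitted with a replicate block, 0 genes and 0 vascular genes were called, also with at least 1 RPKM in every sample, and the median was 0.03. Over all genes tested, same-numbered samples deviated from their group means with a Pearson correlation of -0.02, so with 2 pairs the numbers were not taken to pair the samples. With 1 sample left out, the lone sample is assumed to vary like the other group. The depth of WT replicate 2, 0.658 times that of WT replicate 1, limits genes such as Nostrin and Emcn.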
